A study of Mus musculus with 65 samples.

Results

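Middle-strength hotspots without MEI4 are places in the mouse genome where meiotic breaks were mapped by DMC1 in the wild type, at an intermediate deposited value. No MEI4 peak was listed at them in the wild type, Prdm9KO, Spo11KO, Iho1KO or Hormad1KO. They were chosen from the wild-type DMC1 list as the hotspots on chromosomes 1 to 19 with a deposited value from 129 up to 436.5 that shared not even 1 bp with any of the 5 MEI4 lists. The rule took 2108 of the 3350 autosomal hotspots of that band, out of 13808 hotspots in the whole list. The remaining 1242 hotspots of the band overlapped at least 1 MEI4 list and served as the comparison. Since the DMC1 value and the MEI4 lists made the selection, both are given below as description only.

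The study mapped proteins by chromatin immunoprecipitation and sequencing (ChIP-seq) in whole testes enriched in spermatocytes at the leptotene and zygotene stages (L/Z). All groups used here, the wild type included, came from pups whose spermatogenesis had been synchronised: they were fed an inhibitor of retinoic acid, then injected once with retinoic acid, and testes were taken 8 days after injection. The genotypes were wild type, Prdm9KO (B6;129P2-Prdm9tm1Ymat/J), Spo11KO (Spo11tm1Mjn), Mei4KO (Mei4tm1Bdm), Iho1KO (Iho1tm1.2Atot) and Hormad1KO (Hormad1tm1.2Atot), and the labels name C57BL/6JCrl for both DMC1 groups. Of 36 groups, the lists of 24 were used: DMC1 in the wild type and Hormad1KO, CTCF in the wild type, and 5 of MEI4, 5 of IHO1, 5 of HORMAD1 and 6 of SYCP3. Per the design text, the signal of each protein's own knockout was subtracted. Each list is attached to replicate 1 of its group, pooling is not stated, and SYCP3 in Prdm9KO, Spo11KO and Iho1KO has 1 sample, so no difference below has a replicate check.

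In meiosis, SPO11 cuts DNA at places that PRDM9 marks by methylating histones beside its binding sites. MEI4 and IHO1 belong to the machinery that assembles on chromosome axes and is needed for breaks, whereas HORMAD1 and SYCP3 are building blocks of the axis itself. The recombinase DMC1 then coats the resected single strands, so that DMC1-bound single-stranded DNA marks breaks, while MEI4 acts before them.

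A subset of these hotspots lay on transcription start sites. The promoters of 4 genes are printed to show how far composition varied among them: Akap9 and Fbxo30 lie in hotspots with SYCP3 peaks in Prdm9KO, and Prdm9 and Gphb5 in hotspots found in Hormad1KO without any IHO1, HORMAD1 or SYCP3 peak. They were picked after their values were seen, as the 2 of each kind with the highest wild-type DMC1 value. Each run is the 250 bases before the start site in RefSeq (GRCm38.p6), 5′ to 3′ on the gene's strand, with every CpG dinucleotide in capitals. Akap9 (gene ID 100986, chr5:3927936-3928185, plus strand) lay in the hotspot chr5:3926859-3929610, and Fbxo30 (71865, chr10:11281337-11281586, plus) in chr10:11280111-11282903. Prdm9 (213389, chr17:15563332-15563581, minus) lay in chr17:15562088-15564019, and Gphb5 (217674, chr12:75416782-75417031, minus) reached into chr12:75414882-75416809.
Akap9: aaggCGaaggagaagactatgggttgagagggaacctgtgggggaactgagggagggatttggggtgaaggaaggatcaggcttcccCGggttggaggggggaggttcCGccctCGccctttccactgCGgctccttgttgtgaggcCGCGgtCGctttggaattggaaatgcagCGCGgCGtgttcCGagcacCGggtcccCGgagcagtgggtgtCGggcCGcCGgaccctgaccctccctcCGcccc
Fbxo30: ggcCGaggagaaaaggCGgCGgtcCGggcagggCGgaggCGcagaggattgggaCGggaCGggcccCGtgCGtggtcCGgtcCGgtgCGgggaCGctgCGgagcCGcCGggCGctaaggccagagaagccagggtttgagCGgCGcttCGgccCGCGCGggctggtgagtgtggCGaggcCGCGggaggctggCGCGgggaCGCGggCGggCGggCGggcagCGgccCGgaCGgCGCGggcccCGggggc
Prdm9: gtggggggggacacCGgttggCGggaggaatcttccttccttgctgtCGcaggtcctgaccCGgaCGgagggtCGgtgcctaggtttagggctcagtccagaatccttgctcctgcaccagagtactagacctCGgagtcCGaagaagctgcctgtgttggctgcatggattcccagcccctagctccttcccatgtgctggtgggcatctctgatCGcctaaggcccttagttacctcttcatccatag
Gphb5: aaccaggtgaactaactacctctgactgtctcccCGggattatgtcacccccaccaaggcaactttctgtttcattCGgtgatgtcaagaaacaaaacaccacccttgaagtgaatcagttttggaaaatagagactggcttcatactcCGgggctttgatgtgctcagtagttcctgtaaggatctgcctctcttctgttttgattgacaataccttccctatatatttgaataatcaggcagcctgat
The runs of Akap9 and Fbxo30 hold 18 and 40 CpG, and those of Prdm9 and Gphb5 hold 9 and 3. Prdm9 and Gphb5 lie at the low end of their kind: over the longer promoter window described below, the 8 promoters in members found in Hormad1KO had a median of 18.5 CpG, with a lower quartile of 14.25.

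The members spanned the whole band but were concentrated in its lower part. Their deposited DMC1 value had a median of 196.5 (quartiles 157 and 263.5), against 266.25 (199.5 and 347.5) for the hotspots with MEI4. The lowest members, at 129, were chr1:24103785-24105620 near Fam135a and chr2:78010869-78012676 near Cwc22, and the highest were chr10:83245516-83248190 inside Slc41a2 at 436.5 and chr10:102032817-102035114 inside Mgat4c at 436. Just outside the band, the nearest hotspots without MEI4 were chr1:163854428-163856203 inside Kifap3, at 128.5, and chr1:21731358-21733369 inside Kcnq5, at the upper limit of the band. Median width was 1887.5 bp, against 1900.5 bp with MEI4.

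Members, like other hotspots without MEI4, lay far from MEI4 peaks rather than just beside them. The gap to the nearest MEI4 peak of the 5 lists had a median of 222796 bp. It was 174697 bp in weaker and 295718 bp in stronger hotspots without MEI4. Of the 2108 members, 26 lay within 5000 bp. The closest was chr9:58985667-58987332 inside Neo1, at 1117 bp, followed by chr10:27567884-27569376 inside Lama2, at 1350 bp. The farthest were chr3:4464298-4467209, whose nearest protein-coding gene was Zfhx4, at 4379326 bp, and chr5:9418822-9420851 inside Elapor2, at 3677287 bp. In the comparison, the MEI4 lists of Spo11KO and Hormad1KO supplied most overlaps, at 854 and 847 of the 1242 hotspots. Iho1KO gave 495, the wild type 77 and Prdm9KO 3, so that absence of MEI4 means absence chiefly from knockout lists.

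Hotspots without MEI4 were found in the Hormad1KO DMC1 list far less often than hotspots of the same band with MEI4. Of the 2108 members, 426 overlapped a Hormad1KO hotspot (20.2%, Wilson 95% interval 18.5 to 22.0), against 790 of 1242 with MEI4 (63.6%, 60.9 to 66.2) and 34.2% of all autosomal hotspots. The difference was -43.4 percentage points (Newcombe 95% interval -46.5 to -40.2), lower on 19 of 19 autosomes. A difference is called here where its interval excludes 0. Intervals cover counting error only and treat hotspots as independent, and because there is 1 list per group no p-value was computed. Weaker hotspots without MEI4 were found in 4.74% and stronger ones in 54.7%, on either side of the members.

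The members' share rose with the wild-type value and stayed below that of hotspots with MEI4 throughout the band. In 8 sub-bands with nearly equal numbers of hotspots it ran from 12.8% (45 of 352 members, values 129 to 145.5) to 48.1% (75 of 156, values 359.5 to 436.5), while the share with MEI4 ran from 54.5% to 71.6%. The smallest gap was in the highest sub-band, at -23.6 points (-32.8 to -13.9). Standardised to the members' numbers in the sub-bands, the difference was -40.2 points (-43.8 to -36.4).

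**Figure D1:**
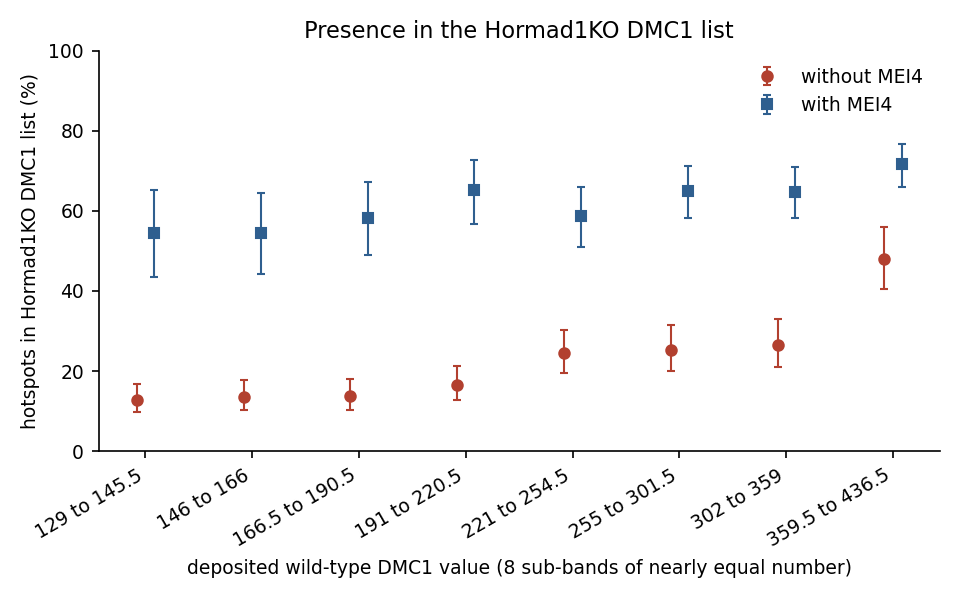
Share of hotspots found in the Hormad1KO DMC1 list (y axis, percent) in 8 sub-bands of the deposited wild-type DMC1 value (x axis), for hotspots without (circles) and with MEI4 (squares), with Wilson 95% intervals. The circles lie below the squares in each sub-band, from 12.8% against 54.5% in the lowest to 48.1% against 71.6% in the highest.

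The size of this difference depended on which MEI4 list the comparison hotspots came from. Those in the Hormad1KO MEI4 list were found in the Hormad1KO DMC1 list in 76.4% (647 of 847), and those whose MEI4 peaks came only from other genotypes in 36.2% (143 of 395). Against the latter the members' difference was -16.0 points (-21.1 to -11.1), still called. Hotspots in the Iho1KO MEI4 list were found in 90.3% (447 of 495), the highest share of the 5 lists, followed by Hormad1KO with 76.4%, the wild type with 67.5% (52 of 77) and Spo11KO with 60.0% (512 of 854). The 3 hotspots of the Prdm9KO list were too few to place. The Hormad1KO MEI4 list, which helped to choose the members, and the Hormad1KO DMC1 list share their genotype, and how far this sets the pooled difference was not tested beyond these values.

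Members that were found in Hormad1KO had low values there. Their deposited Hormad1KO value had a median of 30 (quartiles 22 and 44.5; highest 606.5), at a median percentile of 19.8 of that list, against 55.5 (33.5 and 102.4) and percentile 41.6 with MEI4. The median was lower in each of the 8 sub-bands, between 27 and 33 for members and between 41.25 and 67 with MEI4. The ratio of the Hormad1KO to the wild-type value within a hotspot had a median of 0.129 in members and 0.224 with MEI4. Over all 4548 autosomal hotspots found in both lists it was 0.146, nearer to the members. The unit of these values is not named, so the ratio ranks hotspots and is not a change in break number.

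Of the 5 found members with the highest ratio of Hormad1KO to wild-type value, 4 lay in Prdm9. Prdm9, which encodes the methyltransferase that positions hotspots, spans chr17:15543072-15564374 in RefSeq and held 5 wild-type hotspots, of which 4 were members. At chr17:15554461-15556008 the value was 319 in the wild type and 606.5 in Hormad1KO, the highest of all members. At chr17:15556612-15558121 the values were 277 and 499.5. The other 2 members in the gene had 243 and 350 (chr17:15552694-15554197) and 245 and 337 (chr17:15562088-15564019, at the promoter printed above). The fifth hotspot of the gene, chr17:15544272-15546058, lay above the band, without MEI4, and went from 651.5 to 1199.5. The 5 ratios lay between 1.38 and 1.90 and ranked 13 to 45 among the 4548 autosomal hotspots found in both lists. The fifth of these members, inside Neo1, a receptor of the netrin and repulsive guidance families, had 331 in the wild type and 410 in Hormad1KO.

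Peaks of the axis and break-machinery proteins were rare at the members. Of 2108, 1950 overlapped none of the 16 IHO1, HORMAD1 and SYCP3 lists. The 158 that overlapped at least 1 (7.50%, 6.45 to 8.70) compare with 328 of 1242 with MEI4 (26.4%, 24.0 to 28.9) and with 26.6% of all autosomal hotspots. The difference of -18.9 points (-21.6 to -16.3) was in the same direction on 19 of 19 autosomes. Low shares were not particular to the members among hotspots without MEI4. Stronger ones overlapped at least 1 list in 7.94%, a difference of -0.45 points (-3.97 to 2.26), not called. Weaker ones did so in 12.9%, a difference of -5.45 points (-6.80 to -4.01), called.

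IHO1, the MEI4 partner that binds HORMAD1, accounted for most of that difference, in 2 genotypes. In Spo11KO, 20 members had an IHO1 peak (0.949%), against 176 hotspots with MEI4 (14.2%) and 14.6% of all autosomal hotspots, a difference of -13.2 points (-15.3 to -11.3) in the same direction on 19 autosomes. In Hormad1KO, 3 members did (0.142%), against 164 (13.2%) and 12.7% of all, a difference of -13.1 points (-15.1 to -11.3), lower on 18 autosomes. Other hotspots without MEI4 also had low shares. In Spo11KO they were 0.394% of weaker and 2.06% of stronger ones, and in Hormad1KO 0.110% and 0.882%. In the other lists the members had 8 peaks in the wild type (0.380%, against 0.564% with MEI4 and 4.08% of all), 6 in Mei4KO (0.285%, against 0.161% and 0.293%) and 2 in Prdm9KO (0.0949%, against 0.322% and 0.15%). None of these 3 differences was called. Against the 77 hotspots with a wild-type MEI4 peak the differences in the wild type and Prdm9KO were called, at -4.82 points (-12.2 to -1.64) and -5.10 (-12.5 to -1.93). That in Prdm9KO was also called over the sub-bands (-0.47), over value and width classes (-0.45) and against hotspots with MEI4 outside the Spo11KO list (-0.68), and that in Mei4KO over value and gene density classes (0.23). The 2 called differences shrank when standardised over classes of value and gene density, to -8.60 points (-10.9 to -6.63) in Spo11KO and -7.59 (-9.59 to -5.95) in Hormad1KO.

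The IHO1 differences also shrank against hotspots whose MEI4 peaks came from other genotypes. Hotspots in the Spo11KO MEI4 list had an IHO1 peak in Spo11KO in 19.3% (165 of 854), those with MEI4 only in other lists in 2.84% (11 of 388). The members differed from the latter by -1.89 points (-4.08 to -0.54). For IHO1 in Hormad1KO the corresponding shares were 18.8% (159 of 847) and 1.27% (5 of 395), and the members' difference was -1.12 points (-2.79 to -0.349). Both remaining differences were called, at a size below 2 percentage points. Any IHO1 list was met by 30 members (1.42%) against 297 hotspots with MEI4 (23.9%) and 18.8% of all autosomal hotspots, a difference of -22.5 points (-25.0 to -20.1).

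For HORMAD1, the axis protein that recruits the break machinery, the difference depended on the comparison. A HORMAD1 peak of any of its 5 lists was met by 41 members (1.94%), 43 hotspots with MEI4 (3.46%) and 9.17% of all autosomal hotspots. The difference was -1.52 points (-2.79 to -0.402), and it was not called once the comparison was standardised over classes of value and gene density (-0.33, interval -1.94 to 0.821). It was -14.9 points (-24.8 to -8.16) against the 77 hotspots with a wild-type MEI4 peak, of which 16.9% met HORMAD1, -4.13 against hotspots with MEI4 outside the Hormad1KO list and 0.40 against those outside the Spo11KO list. By genotype it was called in Spo11KO, with 14 members (0.664%) against 22 hotspots with MEI4 (1.77%) and 5.3% of all, and in Iho1KO, with 9 (0.427%) against 13 (1.05%) and 1.43% of all. The Spo11KO difference was -1.11 points (-2.04 to -0.36), though 0.41 against hotspots whose MEI4 peaks were not in the Spo11KO list, and that of Iho1KO -0.62 (-1.38 to -0.0413). The latter kept direction and call in 8 of 14 alternatives, and ranged from -6.07 to -0.012. The members had 7 peaks in the wild type (0.332%; 4.66% of all), 5 in Prdm9KO (0.237%; 0.391%) and 28 in Mei4KO (1.33%; 2.04%), none called against all hotspots with MEI4. The wild-type difference was called against the 77 hotspots with a wild-type MEI4 peak (-4.86, interval -12.3 to -1.69), without gene ends (-0.57) and against hotspots with MEI4 outside the Hormad1KO list (-0.93). That in Mei4KO was called against the first and the last of these sets (-3.87 and -2.22).

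SYCP3, a structural protein of the axis, had lists in which members exceeded hotspots with MEI4. A SYCP3 peak of any of its 6 lists was met by 116 members (5.50%), 47 hotspots with MEI4 (3.78%) and 15.1% of all autosomal hotspots, a difference of 1.72 points (0.212 to 3.12). In Prdm9KO, where PRDM9-directed breaks are lost, 46 members carried a SYCP3 peak (2.18%, 1.64 to 2.90), against 4 hotspots with MEI4 (0.322%) and 1.1% of all autosomal hotspots. The difference was 1.86 points (1.12 to 2.60), higher on 15 of 19 autosomes. In Iho1KO, 97 members did (4.60%, 3.79 to 5.58), against 22 (1.77%) and 6.56% of all, a difference of 2.83 points (1.62 to 3.98), higher on 14 autosomes. The Iho1KO excess lay in the lower values: it was called in the sub-bands from 146 to 166 (7.10 points) and from 166.5 to 190.5 (6.03), and in the 4 sub-bands from 221 upwards the differences were -1.77, 1.76, 0.068 and -0.63, none called. Weaker hotspots without MEI4 were still more often in the Iho1KO list, at 9.45%, and were in the Prdm9KO list in 1.31%. Against the 77 hotspots with a wild-type MEI4 peak alone, the differences turned to -1.71 points in Prdm9KO and -8.39 in Iho1KO.

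The other SYCP3 lists went the opposite way or did not differ. In the wild type 2 members had a peak (0.0949%), against 11 with MEI4 (0.886%) and 7.56% of all, a difference of -0.79 points (-1.49 to -0.327). In Spo11KO the counts were 32 (1.52%) and 33 (2.66%), with 5.95% of all, a difference of -1.14 points (-2.28 to -0.161) that turned to 0.40 when standardised over classes of value and gene density. Mei4KO, with 20 members (0.949%; 1.11% of all), and Hormad1KO, with 2 (0.0949%; 1.46% of all), were not called. Mei4KO was called over the sub-bands (0.67), over value and width classes (0.71) and over value and gene density classes (0.82), and Hormad1KO against the 77 hotspots with a wild-type MEI4 peak (-3.80).

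**Figure D2:**
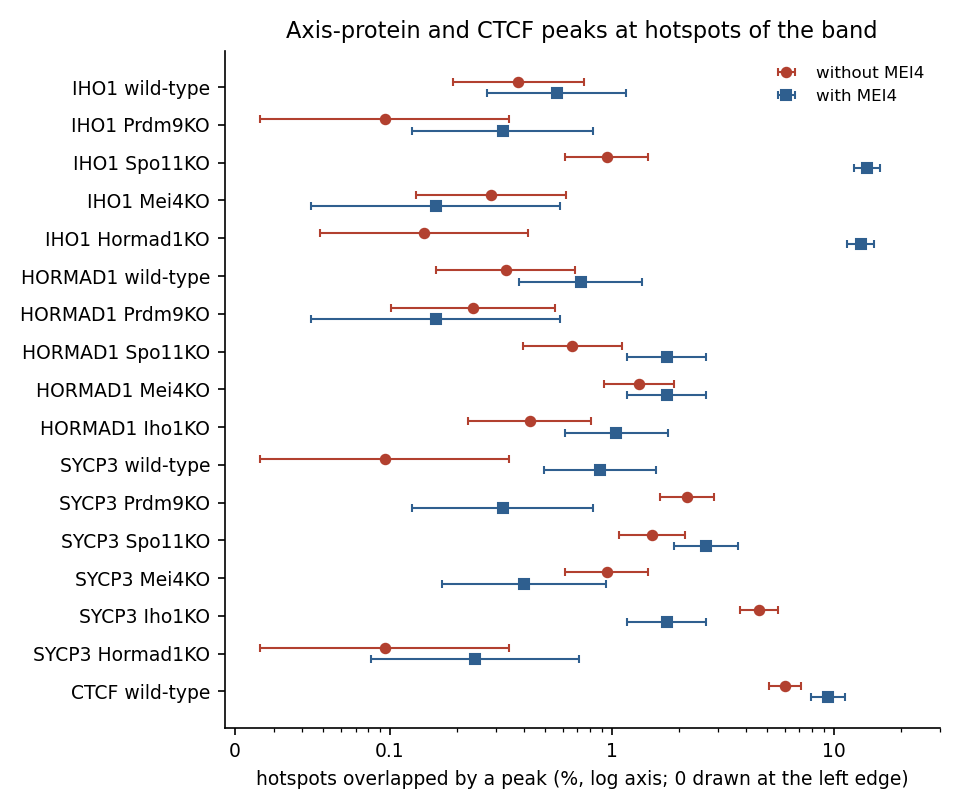
Share of hotspots overlapped by a peak (x axis, percent, log scale) in each IHO1, HORMAD1 and SYCP3 list and in the wild-type CTCF list (y axis), for hotspots of the band without (circles) and with MEI4 (squares), with Wilson 95% intervals. The sets are farthest apart for IHO1 in Spo11KO (0.949% against 14.2%) and Hormad1KO (0.142% against 13.2%), and circles lie to the right with intervals that do not overlap for SYCP3 in Prdm9KO and Iho1KO.

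The higher SYCP3 shares rested on members at gene ends. Without hotspots within 1 kb of either end of a protein-coding gene, the difference in Iho1KO turned to -0.66 points and that in Prdm9KO fell to 0.20 points, neither called. The SYCP3 peaks of the 2 knockouts lay largely on the same members: 35 of the 46 in Prdm9KO were also in the Iho1KO list, which is 76.1% of the former and 36.1% of the latter. These members were wide, with a median of 2701.5 bp for the 46 and 2644 bp for the 97. Few were found in Hormad1KO, 2 of 46 (4.35%) and 5 of 97 (5.15%), against 20.6% and 20.9% of the other members.

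Peak coverage around the centres had a different shape in the 2 knockouts. SYCP3 in Iho1KO covered 4.36% of member centres and 0.285% of positions 5 kb upstream in chromosome coordinates. In Prdm9KO it covered 1.19% of the centres and more of the flanks, with 1.66% at 1 kb after the centre. IHO1 in Spo11KO covered 0.949% of member centres and 14.2% of the centres with MEI4.

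**Figure D3:**
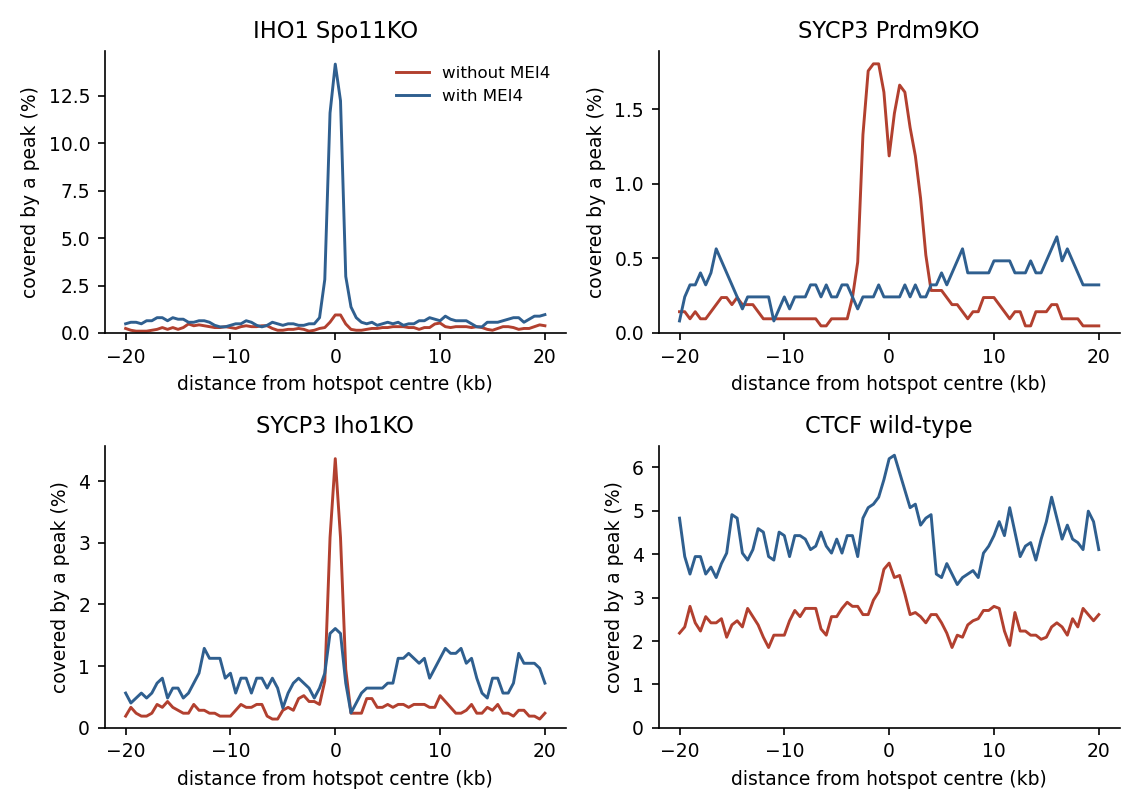
Share of hotspots whose position at a given distance from the hotspot centre (x axis, kb) is covered by a peak (y axis, percent) for 4 lists, for hotspots without (red) and with MEI4 (blue). SYCP3 in Iho1KO covers 4.36% of member centres, SYCP3 in Prdm9KO covers 1.19% of centres and more of both flanks, and the lines for CTCF stay apart over the whole window.

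Transcription start sites were more common in members than in hotspots with MEI4, though not more than in hotspots at large. On the 18 autosomes that the promoter table covers, 97 of 1991 members held a start site of a protein-coding gene (4.87%, 4.01 to 5.91), against 14 of 1209 with MEI4 (1.16%) and 7.92% of all hotspots there. The difference was 3.71 points (2.55 to 4.85), higher on 17 of 18 chromosomes. By value it was called only in the sub-bands from 129 to 145.5 (6.63 points), 146 to 166 (5.68) and 255 to 301.5 (5.03). In the highest sub-band it was -0.52. Weaker hotspots without MEI4 held a start site in 14.2% (863 of 6069) and stronger ones in 1.88%. The table lists start sites of 17492 of 21900 protein-coding genes, so these shares are lower bounds. Gene ends with their 1 kb margin gave 10.9% against 7.33%, and 13.3% of all, a difference of 3.54 points (1.51 to 5.46). It was 0.71 (-1.12 to 2.43) without the hotspots that hold a start site and 1.82 (-0.221 to 3.77) without those in the first 10 Mb, and it turned to -0.82 against the 77 hotspots with a wild-type MEI4 peak. The start-site difference was 2.21 points against those 77, not called.

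The 97 start-site members stood apart from the other members in several readouts that the selection did not use. They were found in Hormad1KO in 7.22% (7 of 97) against 21.1% of the other members, a difference of -13.9 points (-18.0 to -6.69), whereas 10 of the 14 start-site hotspots with MEI4 were found. Their wild-type values were also lower, with a median of 176 against 198.5. A SYCP3 peak in Iho1KO was present at 58 of 97 (59.8%) against 34 of 1894 others, in Prdm9KO at 25 of 97 (25.8%) against 1.00%, in Spo11KO at 13 (13.4%) against 0.898% and in Mei4KO at 8 (8.25%) against 0.581%. Their median width was 2582 bp, against 1876.5 bp. The link of SYCP3 to start sites was not limited to members. Among hotspots with MEI4, SYCP3 in Iho1KO was at 3 of the 14 with a start site (21.4%) against 1.59% of the others. In Spo11KO it was at 3 of 14 against 2.51%, in Mei4KO at 1 of 14 against 0.335%, and in Prdm9KO at none of the 14.

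The start sites in members were also more often in SYCP3 peaks of Iho1KO and Prdm9KO than start sites in general. Of the 129 start sites in members, 71 lay in an Iho1KO SYCP3 peak (55.0%, 46.4 to 63.4), against 3497 of 20085 autosomal start sites of the table (17.4%). In Prdm9KO the counts were 18 of 129 (14.0%, 9.01 to 21.0) and 234 of 20085 (1.17%). In Spo11KO the shares were 10.9% (6.58 to 17.4) and 5.92%, and in Mei4KO 6.98% (3.71 to 12.7) and 3.16%. The Spo11KO excess varied in direction with CG number. Among start sites with 26 to 67 CG the shares were 8.45% (3.93 to 17.2) in members and 11.8% of all. Among those with 15 to 25 CG they were 23.1% (6 of 26) and 9.27%. With 5 to 14 CG they were 3.85% (1 of 26) and 3.16%, and with 0 to 4 CG 16.7% (1 of 6) and 0.326%. In the wild type none of the 129 and 82 of 20085 (0.408%) lay in a SYCP3 peak. Start sites of one gene share a hotspot, so the 129 are not independent. Of the 17 start sites in hotspots with MEI4, 4 lay in an Iho1KO SYCP3 peak (23.5%, 9.56 to 47.3). Start sites in weaker or stronger hotspots without MEI4 were not compared. Whether the excess is particular to the members was therefore not tested.

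Promoters in members held more CpG than those in hotspots with MEI4, and about as many as those in other hotspots without MEI4. Over the promoter window of 250 bases before and 50 after the start, the dinucleotide CG, which reads the same on both strands, had a median of 27 occurrences in members, 13 in hotspots with MEI4 and 13 in all 21263 protein-coding promoters, of which 95.4% held at least 1. The median was 25 in weaker hotspots without MEI4 (1093 promoters) and 24.5 in stronger ones (8 promoters). Members with SYCP3 in Prdm9KO had a median of 32.5, those with SYCP3 in Iho1KO 31 and those with neither 14. The 45 promoters of the last set and the 17 with MEI4 are few. Within the class of start sites with 26 to 67 CG, 76.1% of those in members (54 of 71, 65.0 to 84.5) and 45.4% of all (2142 of 4718) lay in an Iho1KO SYCP3 peak. With 15 to 25 CG the shares were 53.8% (14 of 26) and 21.3%.

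**Figure D4:**
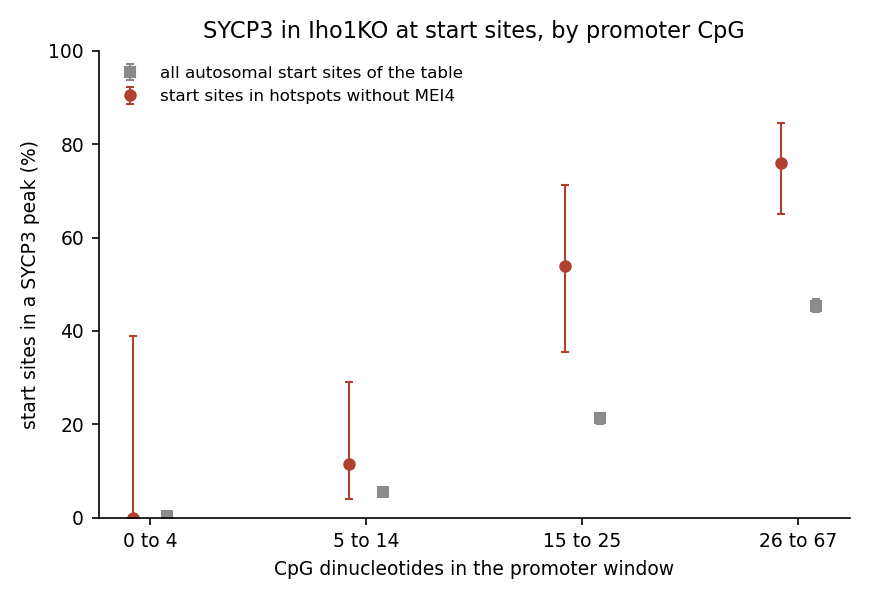
Share of protein-coding start sites that lie in a SYCP3 peak of Iho1KO (y axis, percent) by the number of CG in the promoter window (x axis), for start sites in hotspots without MEI4 (circles) and all autosomal start sites of the table (squares), with Wilson 95% intervals. In the class with 26 to 67 CG the shares are 76.1% and 45.4%. The lowest class holds 6 start sites in members, none of them in a peak.

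The start-site members with SYCP3 in Prdm9KO belonged to genes of varied function. Akap9, a kinase anchor of the centrosome and Golgi, had the highest wild-type value at 360, and Fbxo30, a ubiquitin ligase subunit, had 314.5. Fbxo5, an inhibitor of the anaphase-promoting complex, had 279.5. Fignl1, an ATPase that acts on recombinases in meiosis, had 176, and Hmgb2, a chromatin protein abundant in testis, had 175. Of these 5, Akap9, Fbxo30 and Fignl1 were also in the Iho1KO SYCP3 list. They were picked after their values were seen, for their place in the list or their known role.

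The members with the largest number of the 16 lists were few and did not share one pattern. Among all 2108 members, 87 overlapped 1 list, 38 overlapped 2, and 33 overlapped 3 or more. Of the 1242 hotspots with MEI4, 243 overlapped 1 list and 55 overlapped 2. Sites with many lists were few there too, and 2 of them reached 12 lists. Both members with 7 lists lay on chromosome 2. One, chr2:61814627-61817067, 1733 bp from Tbr1, had a DMC1 value of 284, IHO1 in Prdm9KO, Spo11KO and Mei4KO and SYCP3 in Prdm9KO, Spo11KO, Mei4KO and Iho1KO, and was not found in Hormad1KO. The other, chr2:75785274-75787319, 45880 bp from Agps, had 236 in the wild type and 63 in Hormad1KO. Its lists were IHO1 in the wild type, Spo11KO, Mei4KO and Hormad1KO, HORMAD1 in Spo11KO and Iho1KO, and SYCP3 in Iho1KO. With 6 lists each followed chr4:155961797-155964010 inside C1qtnf12 (345; 93.5 in Hormad1KO), chr5:33431379-33433244 inside Nkx1-1 (205) and chr1:10132631-10134946 inside Cspp1 (155), the last 2 not found in Hormad1KO.

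CTCF, the architectural protein that anchors chromatin loops, was less frequent at members than at hotspots with MEI4. A CTCF peak overlapped 127 of them (6.02%, 5.09 to 7.12), against 117 with MEI4 (9.42%, 7.92 to 11.2) and 8.61% of all autosomal hotspots. The difference was -3.40 points (-5.38 to -1.54), lower on 15 of 19 autosomes. Hotspots without MEI4 lay on both sides of the members, with 9.72% of weaker and 3.82% of stronger ones at a CTCF peak. The median gap to a CTCF peak was 31684.5 bp in members, 15683 bp with MEI4 and 22375 bp over all autosomal hotspots. It was 21124 bp in weaker and 47343.5 bp in stronger hotspots without MEI4. Coverage by CTCF peaks was lower around members over the whole window, 2.18% against 4.83% at 20 kb before the centre and 3.80% against 6.20% at the centre. Members also lay in regions with fewer genes than hotspots with MEI4. Standardised over classes of value and gene density, the CTCF difference was -1.67 points (-4.18 to 0.46), not called. It turned to 0.61 points (-2.26 to 2.76) against hotspots whose MEI4 peaks were not in the Spo11KO list.

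Members at CTCF peaks met HORMAD1 in Mei4KO, the HORMAD1 list compared here, and SYCP3 in Iho1KO more often than the others. HORMAD1 in Mei4KO was present at 10 of 127 (7.87%) against 0.909% of the other members, a difference of 6.97 points (3.39 to 13.0), and hotspots with MEI4 showed nearly the same shares, 9.40% and 0.978%. SYCP3 in Iho1KO was at 10.2% against 4.24% of the other members, SYCP3 in Prdm9KO at 3.94% against 2.07%, which was not called (-0.491 to 6.85 points), and start sites were at 9.84% against 4.55%. They were found in Hormad1KO in 15.7% (20 of 127) against 20.5%, which was not called (-10.4 to 2.78 points). The deposited CTCF score, the authors' own value, had a median of 2.14 at members, 2.38 at hotspots with MEI4 and 1.92 over all 32676 CTCF peaks. Its highest values at members were 9.09 at chr18:3336094-3338358 inside Crem, the testis activator of cyclic AMP-responsive genes, 7.55 at chr10:24620566-24622231, 16515 bp from Enpp1, and 5.48 at chr16:5254139-5255840 inside Eef2kmt. The site near Enpp1 also had 5 lists, IHO1 in Mei4KO and HORMAD1 in the wild type, Prdm9KO, Spo11KO and Iho1KO, whereas Crem had SYCP3 in Iho1KO alone.

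Members lay outside genes and in gene-poor regions more often than hotspots with MEI4. The centre was inside a protein-coding gene for 1048 members (49.7%, 47.6 to 51.8), against 63.4% with MEI4 and 55.3% of all, a difference of -13.7 points (-17.0 to -10.2) on 17 of 19 autosomes, and -8.73, not called, against the 77 hotspots with a wild-type MEI4 peak. The number of protein-coding genes within 500 kb had a median of 6, against 10 with MEI4 and 7 over all autosomal hotspots. It was 7 in weaker and 4 in stronger hotspots without MEI4. Read the other way, 91.0% of the band's hotspots with 0 genes within that distance had no MEI4 (161 of 177), and the share fell through each class to 39.7% with 21 or more genes (150 of 378). The members' share in the Hormad1KO list varied less over these classes, from 17.4% to 26.0%, and the difference from hotspots with MEI4 lay between -50.1 and -33.7 points.

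Members were far more frequent at the centromeric end of the chromosomes than hotspots with MEI4. Within 10 Mb of the first base covered by any list lay 299 members (14.2%, 12.8 to 15.7), against 28 hotspots with MEI4 (2.25%) and 9.22% of all, a difference of 11.9 points (10.2 to 13.6) on 19 of 19 autosomes. Among hotspots without MEI4 the share rose with the DMC1 value, from 9.72% of weaker ones to 21.5% of stronger ones, with the members between. Against the 77 hotspots with a wild-type MEI4 peak it was 6.39 points, not called. In the first 5 Mb, 158 of 173 hotspots of the band had no MEI4 (91.3%), and beyond 80 Mb 51.5% had none. The share did not fall at each step between. It was 91.6% from 5 to 10 Mb, 80.7% from 10 to 20, 62.2% from 20 to 40 and 64.2% from 40 to 80. Distance was not separated from chromosome. Members in the first 10 Mb were found in Hormad1KO in 8.03% (24 of 299) against 22.2% elsewhere, a difference of -14.2 points (-17.4 to -10.1). Hotspots with MEI4 were also found less often there, 7 of 28 against 64.5% elsewhere. SYCP3 in Iho1KO was at 13.4% of these members (40 of 299) against 3.15%, and start sites were at 11.7% against 3.74%.

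Members at the distal end were found in Hormad1KO more often than other members. Within 5 Mb of the last covered base lay 78 members (3.70%) and 62 hotspots with MEI4 (4.99%), with 3.77% of all, and the difference of -1.29 points (-2.83 to 0.109) was not called. It was called over the sub-bands (-1.84, interval -3.79 to -0.187) and against the 77 hotspots with a wild-type MEI4 peak (-13.2, interval -23.1 to -6.38). Of the 78, 34 were found in Hormad1KO (43.6%, 33.1 to 54.6) against 19.3% of the other members, a difference of 24.3 points (13.7 to 35.5). Hotspots with MEI4 at this end were found in 82.3% (51 of 62). The share of the band without MEI4 ranged by chromosome from 45.6% on chromosome 9 (68 of 149) to 78.7% on chromosome 16 (118 of 150), and on chromosome 9 the members were found in Hormad1KO most often of the 19, in 44.1% (30 of 68).

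**Figure D5:**
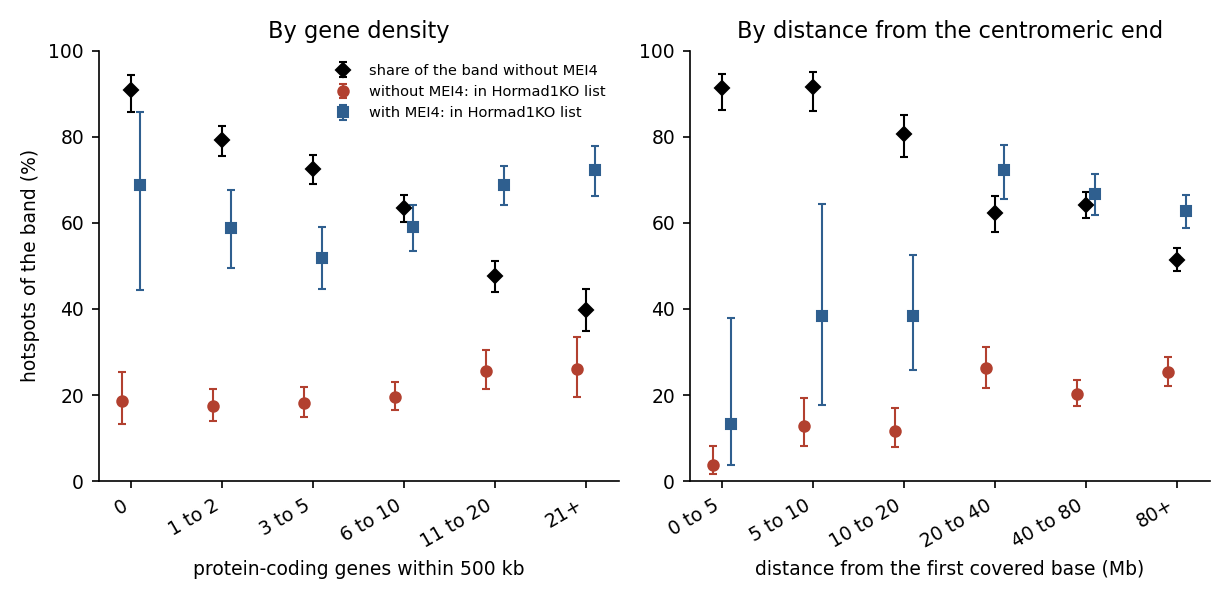
Share of hotspots of the band without MEI4 (diamonds), and share found in the Hormad1KO DMC1 list among hotspots without (circles) and with MEI4 (squares), in percent with Wilson 95% intervals (y axis), by protein-coding genes within 500 kb (left) and by distance from the first covered base in Mb (right). The share without MEI4 falls from 91.0% to 39.7% with gene density. By distance it is 91.3% in the first class and 51.5% in the last, without a fall at each step. The squares rest on 16 hotspots with no gene within 500 kb and on 15 and 13 in the first classes of distance.

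The stronger hotspots next to members differed too. The nearest autosomal hotspot with a value above the band, at a median of 239996 bp, was in the Hormad1KO list for 78.8% of members, against 93.4% of hotspots with MEI4 (median 192243 bp), a difference of -14.6 points (-16.8 to -12.3). Of all 3294 autosomal hotspots above the band, 87.2% were in the Hormad1KO list, which lies between these shares. Neighbouring members can share the same strong hotspot. That hotspot had MEI4 for 84.2% of members and 95.9% of the others, with 89.7% of all hotspots above the band. These shares are given as description because MEI4 made the selection.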

How the data were processed

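ChIP-seq peak and hotspot lists of synchronised mouse testes were used as deposited. Per the submitters' processing notes, Bowtie2, MACS2 and the mm10 genome were used; thresholds are not given in the sources used here. The deposited DMC1 value is a signal per hotspot that the authors did not name a unit for, and the deposited CTCF score is the authors' own value per peak; other lists give positions only. Sequencing depth is unknown, and the lists of 12 of 36 groups were not used here. The groups not used include MEI4 in Mei4KO, B6-Tg(YF) and RJ2.

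Overlap required 1 bp. Shares of hotspots were given Wilson 95% intervals and differences Newcombe 95% intervals, with no p-value, since each group has 1 list. The Newcombe interval was tested on simulated data, and the Wilson interval of a single share was not. Standardised differences weighted the comparison hotspots to the members' classes. Gene positions and start sites came from RefSeq (GRCm38.p6); start sites were not analysed on chromosome 18. Python 3.11.15, numpy 2.4.6, pandas 2.3.3 and matplotlib 3.10.9 were used.

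The members and lists were chosen with earlier results of these data known. Sites were named as the members with the 3 highest Hormad1KO values, the most of the 16 lists, the lowest and highest DMC1 value, the smallest and largest gap to MEI4 and the 3 highest CTCF scores, plus the hotspots just outside the band; others were chosen after their values were seen. Alternatives covered the overlap rule, list strength, comparison set, value, width and gene density classes, and regions left out.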

Additional observations from a re-analysis of the deposited data

Results flagged for a closer look

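Differences between members and hotspots with MEI4 were compared between each knockout list and the wild-type list of the same protein, over the same hotspots and with an interval for counting error only. That interval treats the knockout and wild-type differences as independent and ignores that they share their hotspots. For IHO1, the knockout difference minus the wild-type difference was -13.0 percentage points in Spo11KO (-15.2 to -11.0) and -12.9 in Hormad1KO (-14.9 to -11.0). For SYCP3, the difference was higher than in the wild type by 2.65 points in Prdm9KO (1.78 to 3.67), by 1.34 in Mei4KO (0.553 to 2.23) and by 3.62 in Iho1KO (2.32 to 4.96). Of the 13 knockout lists compared, these 5 had an interval that excluded 0. The lists differ in size, and its part in these values was not tested.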

How the results depend on the processing

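No paired analysis was possible because each group has 1 deposited list. Of 99 alternatives of the main results, 80 kept direction and call, and of 224 for single lists, 174 did; the lower share in the Hormad1KO DMC1 list and of IHO1 were among those kept throughout. The start-site result and the comparisons by gene density, by genotype of the MEI4 list, without start sites and without the first 10 Mb were added after seeing the data. Below, values are percentage points, members minus comparison, and the cause was not tested.

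Against the 77 hotspots with a wild-type MEI4 peak, SYCP3 in any list was -14.0, CTCF -1.77, gene ends -0.82, inside genes -8.73, distal ends -13.2, centromeric ends 6.39, start sites 2.21, HORMAD1 in Prdm9KO -2.36, and SYCP3 -1.71 in Prdm9KO, -1.65 in Mei4KO and -8.39 in Iho1KO. Standardised over value and gene density, HORMAD1 was -0.33, CTCF -1.67, IHO1 in the wild type 0.058 and SYCP3 in Spo11KO 0.40. Against hotspots with MEI4 outside the Spo11KO list, HORMAD1 was 0.40, CTCF 0.61, IHO1 in the wild type 0.12, and HORMAD1 -0.021 in Prdm9KO, 0.41 in Spo11KO and 0.56 in Mei4KO. Outside the Hormad1KO list, SYCP3 was 1.71, and 0.095 in Hormad1KO. Without gene ends, SYCP3 was -1.96, -0.15 in Mei4KO and -0.66 in Iho1KO. Without start sites, SYCP3 was -0.83, gene ends 0.71 and HORMAD1 in Prdm9KO -0.014. Without the first 10 Mb, SYCP3 was 0.25 and gene ends 1.82. In the upper 50% of the lists SYCP3 was 0.79. Over 8 sub-bands, distal ends were -1.84 and HORMAD1 in Prdm9KO -0.055, which was -0.019 with 50% overlap. Without the distal 5 Mb, IHO1 in Prdm9KO was 0.099 and SYCP3 in Hormad1KO 0.014.

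Many single lists met fewer than 10 members, so their direction rests on few hotspots. Depth, and with it the weakest detectable peak, is unknown, and MEI4 below the listing threshold cannot be told apart from none.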
